A study of Homo sapiens with 22 samples.

Results

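The 10 genes described here encode the proteins that build and carry the small nucleolar ribonucleoproteins (snoRNPs): the box C/D core proteins FBL, NOP56, NOP58 and SNU13, the H/ACA core proteins DKC1, NHP2, NOP10 and GAR1, the H/ACA assembly factor NAF1 and the nucleolar scaffold protein NOLC1. They were taken by gene symbol from the 20411 protein-coding genes of each mRNA-seq table, and all 10 were found in both tables and passed the filter on low values in both. The cells were MOLM-13, an acute myeloid leukemia line with an MLL rearrangement, and NB4, an acute promyelocytic leukemia line. Each line was grown for 48 h with the vehicle DMSO or with 2 μM FP54, a bifunctional degrader that joins a ligand of the m6A demethylase FTO to a ligand of the VHL ubiquitin ligase. There were 3 libraries of polyadenylated RNA in each of the 4 groups, 12 of the 22 samples in the series, and the other 10 samples (m6A-seq and polysome-seq) were not analysed here. By the labels the groups of a line differ only in the compound, and no transgene is named. The labels do not say whether the 3 libraries of a group came from separate cultures. The p-values therefore measure the spread between these libraries, which may be technical.

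snoRNPs guide chemical modification of ribosomal RNA in the nucleolus. In box C/D particles a guide RNA pairs with the target and FBL adds a methyl group to the ribose, with NOP56, NOP58 and SNU13 holding the RNA. In H/ACA particles DKC1 (dyskerin) turns uridine into pseudouridine together with NHP2, NOP10 and GAR1, and these 4 proteins also bind telomerase RNA. NAF1 sits in the H/ACA particle before GAR1 replaces it, and NOLC1 (Nopp140) shuttles with both kinds of particle between the nucleolus and Cajal bodies.

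Gene models linked some members to the RNAs they carry. By GENCODE v44 on hg38, 11 snoRNA genes lie inside introns of the canonical transcripts of 3 members: 5 in NOP56, 4 in NOP58 and 2 in DKC1. Of these, 8 are of the box C/D class and 3 of the H/ACA class. All 4 inside NOP58 are box C/D genes, and both inside DKC1 are H/ACA genes, while NOP56 holds 4 of the first class and 1 of the second. The following genes show letters of the elements that the member proteins recognise. The C box (TGATGA) and the D box (CTGA) are in capitals for the first pair, and the last letters ACA for the other 3. After these letters 3 bases follow in SNORA51 and SNORA36A but 0 in SNORA56, so in SNORA56 they may not be the ACA box.
SNORD57 (intron of NOP56, chr20:2656939-2657010, plus strand): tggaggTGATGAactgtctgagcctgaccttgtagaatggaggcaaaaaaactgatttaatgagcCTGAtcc
SNORD11 (intron of NOP58, chr2:202293051-202293134, plus strand): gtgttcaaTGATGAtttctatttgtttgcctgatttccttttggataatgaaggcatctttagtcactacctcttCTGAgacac
SNORA51 (intron of NOP56, chr20:2655067-2655198, plus strand): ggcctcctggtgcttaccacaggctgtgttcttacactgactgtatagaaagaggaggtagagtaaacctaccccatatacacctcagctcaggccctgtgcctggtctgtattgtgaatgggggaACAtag
SNORA36A (intron of DKC1, chrX:154768528-154768659, plus strand): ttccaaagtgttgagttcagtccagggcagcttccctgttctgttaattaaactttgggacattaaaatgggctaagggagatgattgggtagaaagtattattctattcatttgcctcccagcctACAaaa
SNORA56 (intron of DKC1, chrX:154774998-154775126, plus strand): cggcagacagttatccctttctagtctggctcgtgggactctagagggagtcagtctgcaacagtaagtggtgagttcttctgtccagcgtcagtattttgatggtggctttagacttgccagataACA
The full C box TGATGA together with a D box was present in 4 of the 8 box C/D genes, and the other 4 had its first letters, TGATG. The snoRNAs themselves were not in these tables of protein-coding genes. Of the 11 snoRNA genes, 8 touch an exon of another annotated isoform of their host, so reads from such isoforms would count toward NOP56, NOP58 or DKC1.

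The reads counted on genes ranged from 5835173 (MOLM-13, FP54 replicate 2) to 22342375 (NB4, DMSO replicate 3). In NB4 depth went with the compound: the DMSO libraries held 20655342 to 22342375 reads and the FP54 libraries 10599156 to 13075071. In MOLM-13 the DMSO libraries held 16308925 to 17357940 reads and the FP54 libraries 5835173 to 19202930. What depth did to the NB4 differences was not tested. The values are RPKM, read counts scaled to gene length and library size. Behind the members lay between 30 reads (NAF1) and 8011 reads (NOP56) per library in MOLM-13, and between 228 reads (NAF1) and 22023 reads (NOLC1) in NB4. Markers of the labelled lines differed between the tables: in DMSO, FLT3 averaged 74.0 RPKM in MOLM-13 and 5.67 RPKM in NB4, HOXA9 21.3 and 0.234 RPKM, MEIS1 6.36 and 0.157 RPKM, and MPO 16.1 and 2170 RPKM. Of the other granule genes, PRTN3 averaged 413 and 61.0 RPKM and ELANE 186 and 0.150 RPKM, so these 2 promyelocyte markers were lower in the NB4 table. The myeloid markers CD33, SPI1 and CEBPA averaged between 13.3 and 155 RPKM in both. CD3E, HBB and ALB were under 1 RPKM in every group, and EPCAM averaged 0.0158 RPKM in MOLM-13 and 8.15 RPKM in NB4. FTO mRNA averaged 1.01 ± 0.0767 RPKM with DMSO and 1.01 ± 0.118 RPKM with FP54 in MOLM-13, and 2.73 ± 0.180 against 2.03 ± 0.0782 RPKM in NB4 (SD, n = 3 libraries). FP54 acts on the FTO protein, which these files do not measure. One library stood apart from its group: in MOLM-13 DMSO replicate 2, 4 members lay within the range of the FP54 libraries and 5 lay at or under the highest FP54 value, against 0 for replicate 1 and 1 for replicate 3. Of all tested genes, 41.5% lay within the FP54 range in that library, against 31.9% and 30.4% in the others. The members' differences and calls, their sum and balance, the snoRNA host counts, MYC and RRP9 in MOLM-13 are also given without it.

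Levels in DMSO came first. On the RPKM scale the order in NB4 was NOLC1 (236 ± 15.6 RPKM, SD, n = 3), NOP56 (170 ± 17.7), NOP58 (113 ± 13.4), NHP2 (72.8 ± 9.30), DKC1 (66.0 ± 2.86), FBL (65.0 ± 8.35), SNU13 (55.8 ± 1.92), NOP10 (33.5 ± 0.622), GAR1 (22.4 ± 0.558) and NAF1 (7.07 ± 0.817). Every library of a gene lay above every library of the next in this order, except that NHP2 overlapped DKC1 and DKC1 overlapped FBL. In MOLM-13 the order was FBL (109 ± 12.9 RPKM), NOP58 (83.9 ± 22.9), NOP56 (74.2 ± 31.9), NOLC1 (50.1 ± 21.4), NHP2 (32.8 ± 10.96), DKC1 (24.6 ± 9.69), NOP10 (24.6 ± 4.67), SNU13 (23.6 ± 5.38), GAR1 (9.70 ± 3.00) and NAF1 (1.97 ± 0.687). Here only SNU13 against GAR1 and GAR1 against NAF1 were separated in every library, and all other neighbours overlapped. NAF1, the factor that GAR1 replaces, was the lowest member in both lines, and the methyltransferase FBL led in MOLM-13 and was the sixth in NB4.

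The order of levels depends on the length used. The deposited RPKM divide by all annotated exon bases of a gene, which are 1.07 times the canonical transcript for NOLC1 (3970 bases of exon) but 3.73 times for DKC1 (9198 bases) and 3.11 times for NOP10 (1576 bases). Per kilobase of the canonical transcript, an alternative added after the data were seen, NOP56 led in NB4 with DMSO at 440 ± 45.7 RPKM (SD, n = 3), followed by NOLC1 at 251 ± 16.7 and DKC1 at 246 ± 10.7, which overlapped each other. On that scale FBL (208 ± 24.6) and NOP56 (192 ± 82.6) led in MOLM-13 with overlapping libraries, and NOLC1 was the seventh at 53.4 ± 22.8. GAR1 and NAF1 were the lowest pair in both lines on both scales. Differences within 1 gene, as reported below, do not change with the length.

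Between the lines, which were tabulated separately and are compared here without a test, all 3 NB4 DMSO libraries lay above all 3 MOLM-13 DMSO libraries for 8 of the 10 members. This held for 41.8% of the 8849 genes tested in both lines, and the reverse for 34.7%. The ratio of the means was highest for NOLC1 (4.71 times) and NAF1 (3.59 times), between 2.22 and 2.68 times for NOP56, SNU13, DKC1, NHP2 and GAR1, and 1.36 times for NOP10. FBL went the other way, with 57.9 to 74.2 RPKM in NB4 and 95.1 to 121 RPKM in MOLM-13, and NOP58 overlapped (104 to 128 against 61.2 to 107 RPKM). The spread also differed: the coefficient of variation of a member in DMSO had a median of 32.2% in MOLM-13 (11.8% to 43.0%) and of 8.51% in NB4 (1.86% to 12.9%).

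**Figure D1:**
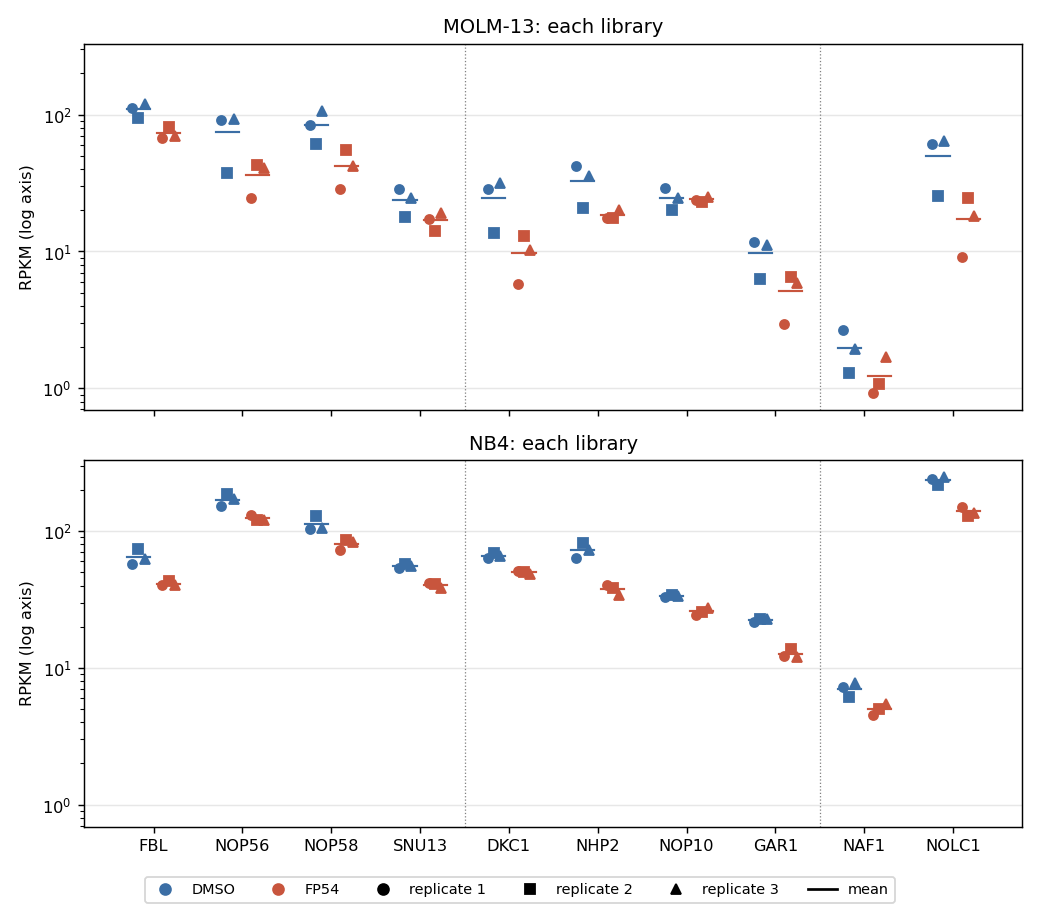
RPKM (log axis) of each of the 10 genes in every library, MOLM-13 above and NB4 below, with DMSO in blue, FP54 in red, the replicate number as the symbol and the group mean as a line. The dotted lines part box C/D, H/ACA and assembly proteins. In NB4 the red symbols lie under the blue ones for all 10 genes, and in MOLM-13 the blue square (DMSO replicate 2) lies under or among the red symbols for NOP56, SNU13, NOP10, GAR1 and NAF1.

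The first comparison asked how FP54 changed the members in MOLM-13. FBL, NOP58, DKC1, NHP2 and NOLC1 fell, and no member rose. A gene was called where limma gave p under 0.01 and a difference of at least 0.5 on the log2(RPKM + 0.1) scale, in a fit across 9710 genes. By this rule 5 of 10 members were called lower and 0 higher, where 9.04% of all tested genes were called lower and 9.30% higher. The same 5 had an adjusted p under 0.05 (Benjamini-Hochberg over all tested genes), against 9.32% of all genes, and the same 5 had every FP54 library under every DMSO library, against 17.0% of all genes. The members' median difference was -0.85, and that of all tested genes was 0.003. At an unadjusted p under 0.05, 8 of 10 members were lower and 0 higher, where 17.4% of all genes were lower at that threshold. By the call rule, limma-voom on the recovered reads called 7 members lower, beside 9.78% of all genes. These are bulk samples, so fewer cells of a type and less RNA per cell cannot be told apart.

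Among the box C/D proteins, FBL, the methyltransferase, stood at 112, 95.1 and 121 RPKM in DMSO replicates 1 to 3 and at 67.9, 81.2 and 69.4 RPKM in FP54 replicates 1 to 3. The groups did not overlap, and FBL fell by 0.58 on the log2 scale (SE 0.14, adjusted p = 0.0218 by limma). NOP58, one of the paired scaffold proteins of the particle, read 83.4, 61.2 and 107 RPKM in DMSO and 28.6, 55.3 and 42.3 RPKM with FP54. It fell by 1.01 (SE 0.25, adjusted p = 0.0235 by limma), to 50.2% of the DMSO mean, with the lowest DMSO library above the highest FP54 library. Its partner NOP56 read 91.9, 37.3 and 93.3 RPKM in DMSO and 24.6, 42.8 and 40.8 RPKM with FP54. DMSO replicate 2 was below 2 FP54 libraries, and the difference of -0.96 (SE 0.34, adjusted p = 0.0694 by limma) was not called. SNU13, which also binds U4 snRNA in the spliceosome, read 28.5, 17.8 and 24.5 RPKM against 17.4, 14.2 and 18.9 RPKM, an overlap, with a difference of -0.47 (SE 0.19, adjusted p = 0.109 by limma).

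Among the H/ACA proteins, DKC1, the pseudouridine synthase, read 28.5, 13.6 and 31.8 RPKM in DMSO and 5.81, 13.1 and 10.2 RPKM with FP54. DKC1 fell by 1.32 (SE 0.34, adjusted p = 0.0264 by limma) to 39.4% of the DMSO mean, although DMSO replicate 2 and FP54 replicate 2 were close. NHP2, which binds the guide RNA beside DKC1, read 42.02, 20.7 and 35.6 RPKM against 17.4, 17.5 and 20.2 RPKM. The groups stayed apart by a small margin, and NHP2 fell by 0.77 (SE 0.23, adjusted p = 0.0435 by limma). GAR1, the last protein to join, read 11.7, 6.25 and 11.2 RPKM in DMSO and 2.94, 6.55 and 5.93 RPKM with FP54. One FP54 library was above DMSO replicate 2, and the difference of -0.93 (SE 0.31, adjusted p = 0.0631 by limma) was not called.

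NOP10, the smallest core protein, which props the active site of DKC1, was the member with the least difference. It read 29.3, 20.0 and 24.4 RPKM in DMSO and 23.9, 23.1 and 25.2 RPKM with FP54, so that the FP54 libraries lay inside the DMSO range. The difference was -0.01 (95% interval -0.37 to 0.34, adjusted p = 0.960 by limma), and its sign changed with quantile normalization and without DMSO replicate 1 or FP54 replicate 2.

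Of the assembly proteins, NOLC1, the scaffold that travels with both particle classes, had the largest difference of the 10 in MOLM-13. It read 61.1, 25.4 and 63.7 RPKM in DMSO and 9.04, 24.5 and 18.2 RPKM with FP54, and fell by 1.53 (SE 0.40, adjusted p = 0.0256 by limma) to 34.5% of the DMSO mean. NOLC1 ranked 62 among the 9710 tested genes ordered from the lowest difference. NAF1 read 2.67, 1.30 and 1.94 RPKM in DMSO and 0.916, 1.08 and 1.69 RPKM with FP54, an overlap at 30 to 211 reads per library, with a difference of -0.63 (SE 0.30, adjusted p = 0.159 by limma).

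The count in MOLM-13 rested on single libraries. Without DMSO replicate 2, 8 of 10 members were called lower, all but NOP10 and NAF1, with a median of -1.14. In that fit 12.4% of all tested genes were called lower, against 9.04% in the full fit. The differences of the members were then larger, at -0.68 for FBL, -1.40 for NOP56, -1.22 for NOP58, -0.66 for SNU13, -1.70 for DKC1, -1.07 for NHP2, -1.22 for GAR1, -0.88 for NAF1 and -1.96 for NOLC1, and NOP10 stood at -0.15. Leaving out DMSO replicate 1 gave 3, and leaving out DMSO replicate 3 gave 2. Leaving out FP54 replicate 1 gave 0 by limma, with 5 members lower at an unadjusted p under 0.05. The share of all genes lower at that unadjusted p was not counted without this library. Of all tested genes, 5.63%, 4.76% and 5.19% were called lower in these fits, in that order. Without the filter on low values 1 member was called, beside 2.60% of all genes called lower. An exact two-sided permutation test of each gene, whose smallest p with 3 libraries against 3 is 0.1, gave 0.1 for the 5 called members, 0.2 for SNU13, GAR1 and NAF1, 0.3 for NOP56 and 0.9 for NOP10.

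**Figure D2:**
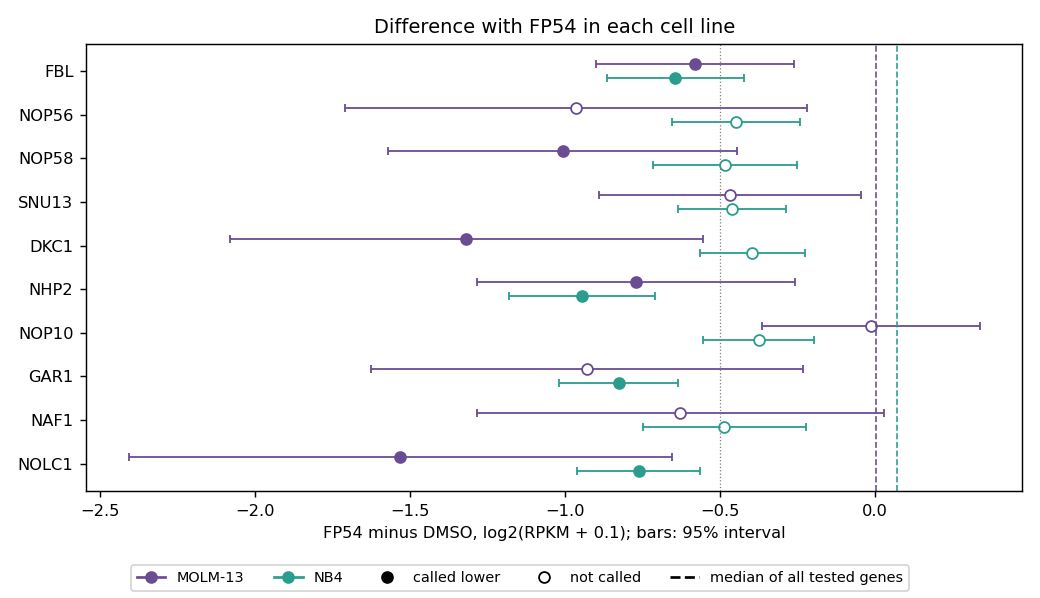
Difference of FP54 minus DMSO on the log2(RPKM + 0.1) scale for each gene, with the 95% interval from limma, MOLM-13 in purple and NB4 in green. Filled symbols were called lower, the dotted grey line marks -0.5 and the dashed lines mark the median of all tested genes (0.003 in MOLM-13, 0.07 in NB4). The NB4 intervals are narrower and none reaches 0, and the MOLM-13 interval of NOP10 is centred near 0.

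In NB4 all 10 members were lower with FP54, and no member was higher. The 4 called lower were FBL, NHP2, GAR1 and NOLC1, where 10.7% of all 9853 tested genes were called lower and 18.6% higher. All 10 had an adjusted p under 0.05 (between 3.16e-05 for GAR1 and 0.00601 for NAF1, limma), against 22.0% of all genes with a lower value. All 10 also had every FP54 library under every DMSO library, which held for 26.2% of all genes, and the exact permutation p was 0.1 for each, the smallest possible. The median difference of the members was -0.49, against 0.07 for all tested genes, and the 6 that were not called missed the size limit of 0.5, not the limit on p.

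NHP2 had the largest difference of the members in NB4. It read 63.4, 82.0 and 73.1 RPKM in DMSO and 40.2, 38.4 and 34.3 RPKM with FP54, and fell by 0.95 (SE 0.11, adjusted p = 4.98e-05 by limma) to 51.7% of the DMSO mean. GAR1 read 21.8, 22.9 and 22.6 RPKM against 12.3, 13.7 and 11.9 RPKM and fell by 0.83 (SE 0.09, adjusted p = 3.16e-05 by limma). The other H/ACA core proteins had smaller differences. DKC1 read 63.5, 69.1 and 65.4 RPKM against 51.1, 50.5 and 48.7 RPKM (a difference of -0.40, adjusted p = 0.00155 by limma). NOP10, which was not called in MOLM-13, read 32.8, 34.0 and 33.8 RPKM against 24.3, 25.8 and 27.4 RPKM (-0.38, adjusted p = 0.00298 by limma), the smallest difference of the 10 in NB4 as well.

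FBL led the box C/D proteins in NB4. It read 57.9, 74.2 and 62.8 RPKM in DMSO and 40.3, 43.4 and 40.2 RPKM with FP54, and fell by 0.64 (SE 0.10, adjusted p = 0.000401 by limma). NOP56, NOP58 and SNU13 were lower by nearly the same amount, with differences of -0.45, -0.48 and -0.46 and adjusted p-values of 0.00232, 0.00295 and 0.000722 (limma). NOP56 read 152, 187 and 171 RPKM in DMSO and 131, 121 and 121 RPKM with FP54. NOP58 read 104, 128 and 106 RPKM against 72.3, 85.9 and 83.0 RPKM. SNU13 read 53.9, 57.7 and 55.7 RPKM against 41.9, 41.4 and 38.2 RPKM, so that each of the 3 kept between 71.3% and 73.0% of its DMSO mean.

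NOLC1, the most abundant member in NB4 on the RPKM scale, read 241, 218 and 248 RPKM in DMSO and 151, 129 and 137 RPKM with FP54. It fell by 0.76 (SE 0.09, adjusted p = 6.57e-05 by limma). NAF1 read 7.29, 6.16 and 7.75 RPKM in DMSO and 4.50, 5.04 and 5.48 RPKM with FP54, a difference of -0.49 (SE 0.12) just short of the size limit. Leaving out any 1 NB4 library left between 4 and 6 members called, beside 10.0% to 11.1% of all genes called lower. All 10 stayed lower at an unadjusted p under 0.05, which 24.7% of all genes reached in the full fit.

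The scaling set how many NB4 members passed the size limit. With median-ratio scaling the median of all tested genes moved by -0.197, to -0.127, and all 10 members were called lower, beside 20.4% of genes called lower and 11.9% higher. With quantile normalization it moved by -0.105, the split was 13.9% lower and 13.0% higher, and 4 members were called, without FBL (-0.48) and with NAF1 (-0.64). Relative to the median of all genes the members' median was -0.556 as reported, -0.557 with median-ratio scaling and -0.357 with quantile normalization. In MOLM-13 these scalings left 5 members called and moved the median of all genes by less than 0.1.

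**Figure D3:**
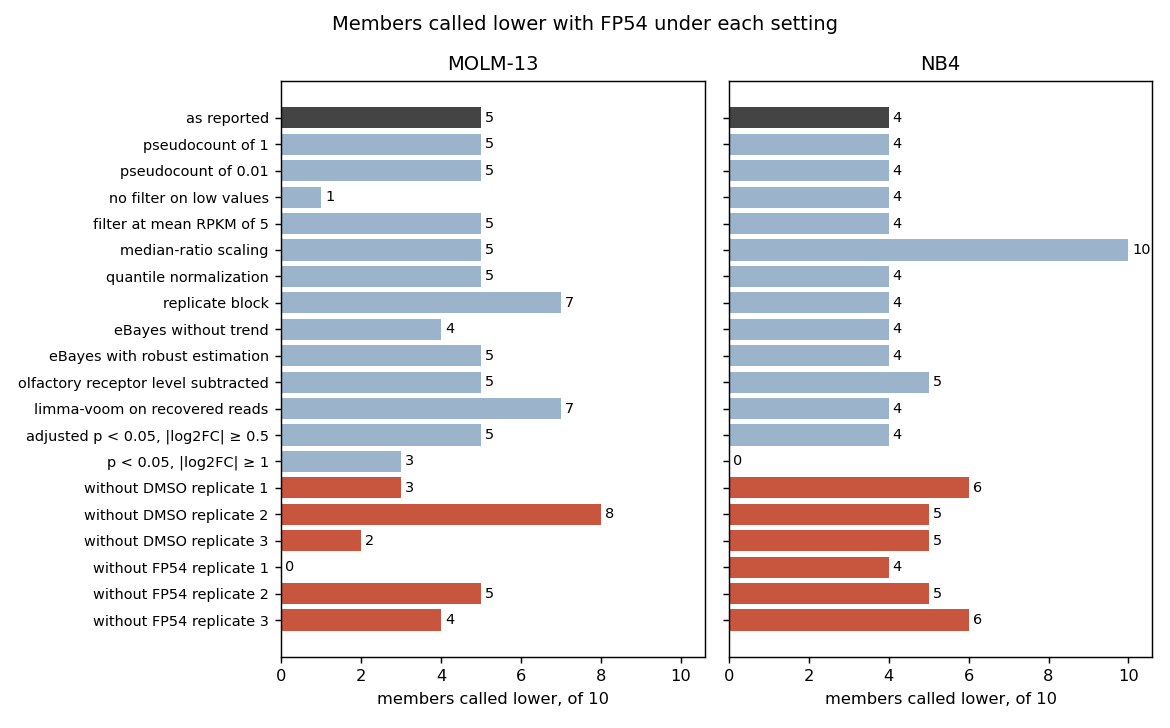
Number of the 10 genes called lower with FP54 under each setting, in MOLM-13 (left) and NB4 (right), with the reported setting in dark grey, other settings in blue and fits without 1 library in red. The MOLM-13 count ranges from 0 without FP54 replicate 1 to 8 without DMSO replicate 2. Of all genes, 5.19% and 12.4% were called lower in these fits. In NB4 the count is 10 with median-ratio scaling, 0 at a size limit of 1 and 4 to 6 elsewhere. Of all NB4 genes, 20.4% were called lower with that scaling and 1.4% at that limit.

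FBL, NHP2 and NOLC1 were called lower in both lines (FBL in NB4 not with quantile normalization), NOP58 and DKC1 in MOLM-13 alone and GAR1 in NB4 alone. Of all tested genes, 9.04% were called lower in MOLM-13 and 10.7% in NB4, and the share called lower in both was not counted. Whether the effect differed between the lines was tested with 1 limma fit to all 12 libraries and the 8849 genes that passed the filter in both. No member passed (0 of 10 at an adjusted p under 0.05, against 14.2% of all genes), and limma-voom also gave 0. At an unadjusted p under 0.05, which 28.2% of all genes passed, there was 1, DKC1, whose difference in NB4 minus that in MOLM-13 was 0.92 (95% interval 0.06 to 1.78, adjusted p = 0.148 by limma). NOP10 differed the other way by -0.36 (interval -0.74 to 0.02, adjusted p = 0.201 by limma), and it passed with median-ratio scaling. The intervals were wide for NOLC1 (0.77, from -0.24 to 1.77), NOP56 (0.52, from -0.34 to 1.37) and NOP58 (0.52, from -0.14 to 1.18), so differences of more than 1 between the lines fall within them. They were narrower for FBL (-0.06, from -0.44 to 0.32) and SNU13 (0.01, from -0.46 to 0.47). Without replicate 2 of the DMSO libraries in both lines, NOP56 and DKC1 passed. The share of all genes that passed was counted for the reported fit alone.

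The summed level of the 10 members was 491, 299 and 514 RPKM in MOLM-13 with DMSO and 199, 279 and 253 RPKM with FP54. In NB4 it was 797, 880 and 846 RPKM against 569, 554 and 546 RPKM. As a share of all RPKM in the library, the members made up 0.189% ± 0.0486 with DMSO and 0.108% ± 0.0187 with FP54 in MOLM-13, and 0.347% ± 0.0077 against 0.246% ± 0.0047 in NB4 (SD, n = 3). The groups did not overlap on the sum in either line. Without DMSO replicate 2 the MOLM-13 DMSO means were 502 RPKM for the sum, 0.217% for the share, 1.56 for the balance given next and 0.17 for DKC1 minus NOP10. The balance between particle classes, the mean log2 level of the 4 box C/D proteins minus that of the 4 H/ACA proteins, was 1.61 ± 0.12 with DMSO and 1.61 ± 0.09 with FP54 in MOLM-13. In NB4 it was 1.06 ± 0.06 with DMSO and 1.19 ± 0.01 with FP54, where the lowest FP54 library (1.18) was above the highest DMSO library (1.14). Within the H/ACA core, the log2 level of DKC1 minus that of NOP10 went from -0.07 ± 0.47 to -1.39 ± 0.61 in MOLM-13 and from 0.98 ± 0.04 to 0.96 ± 0.12 in NB4. These sums and balances are descriptions of the same values and were not tested.

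**Figure D4:**
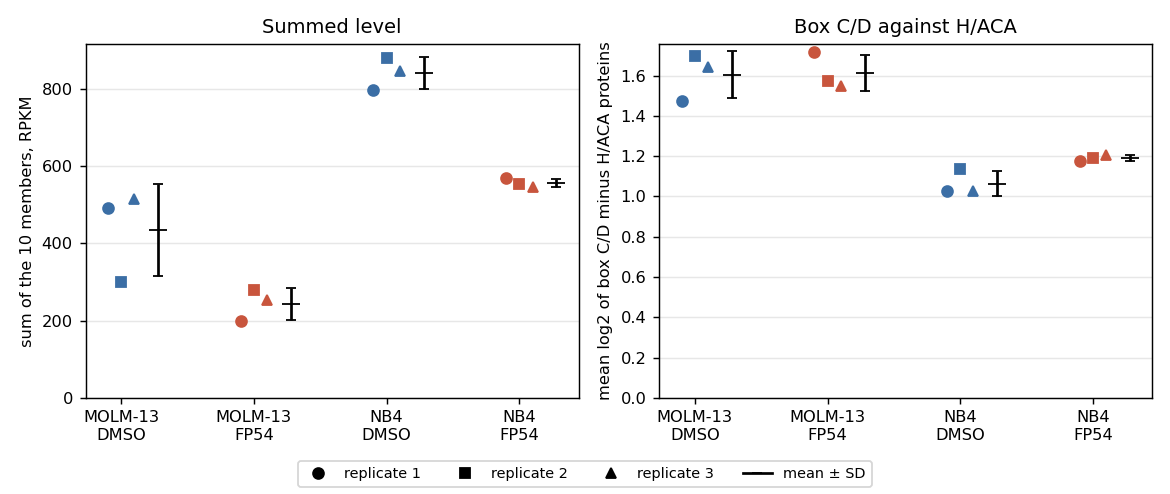
Left, the sum of the 10 genes in RPKM. Right, the mean log2 RPKM of the 4 box C/D proteins minus that of the 4 H/ACA proteins. Each library is shown with the replicate number as the symbol and the mean ± SD (n = 3) beside it. The sum ranges from 199 to 279 RPKM with FP54 in MOLM-13, under the DMSO range of 299 to 514 RPKM. The balance lies between 1.47 and 1.72 in MOLM-13 and between 1.03 and 1.21 in NB4.

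The members varied together across libraries. Over the 12 libraries, centred within each line, the 45 pairwise Pearson correlations of log2(RPKM + 0.1) ranged from 0.408 (DKC1 and NOP10) to 0.984 (DKC1 and NOLC1), with a median of 0.830. The points share the treatment and the libraries, so this is a description. The mean member profile correlated with GAR1 at 0.977, NOLC1 at 0.972 and NOP56 at 0.969, and least with NOP10 at 0.639. Among the other genes of the 8849 compared, the 5 closest to this profile were NOP16 (r = 0.995), HDDC2 (0.991), NDUFS6 (0.990), ELAC2 (0.989) and SNRNP40 (0.989). NOP16, a nucleolar protein, had differences of -1.83 in MOLM-13 and -1.16 in NB4 on the log2 scale, and its choice by likeness to a profile that is lower with FP54 fixes their direction.

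MYC, a transcription factor known to drive genes of ribosome production, was read in the same libraries. It stood at 56.5, 13.8 and 40.2 RPKM in MOLM-13 with DMSO and 5.91, 11.8 and 18.8 RPKM with FP54, a difference of -1.52 (SE 0.50, adjusted p = 0.0567 by limma) that was not called. DMSO replicate 2 had the lowest DMSO value of MYC and of all 10 members in MOLM-13, and without it the difference of MYC was -2.11 (adjusted p = 0.00868 by limma), which was called. In NB4, MYC read 133, 142 and 125 RPKM against 75.8, 67.9 and 65.0 RPKM and fell by 0.94 (adjusted p = 1.62e-05 by limma). The part of MYC in the members' differences was not tested.

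Promoter sequences were at hand for 6 of the 10 members (FBL, NOP56, DKC1, NHP2, NOP10 and GAR1, from RefSeq on GRCh38.p14) and not for NOP58, SNU13, NAF1 and NOLC1. The 250 bases before each RefSeq start were searched on both strands for CACGTG (the E-box letters), GCATGCGC (within the NRF1 motif) and CCGGAAGT (the ETS letters). These letters were chosen after the promoters had been seen. The starts are not always those of GENCODE. The windows of DKC1 and NOP10 reach into their GENCODE genes, which begin at chrX:154762742 and, on the minus strand, at chr15:34343180. The windows of a pair are shown because their genes lay at the ends of the MOLM-13 range among H/ACA proteins, NOP10 with the least difference and DKC1 with the largest, with the searched letters in capitals.
NOP10 (chr15:34343137-34343386, minus strand): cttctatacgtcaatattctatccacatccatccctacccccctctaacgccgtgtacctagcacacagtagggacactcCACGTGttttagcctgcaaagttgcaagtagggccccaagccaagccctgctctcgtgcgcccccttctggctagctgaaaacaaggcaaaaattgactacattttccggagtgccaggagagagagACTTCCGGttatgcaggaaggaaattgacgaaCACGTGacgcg
DKC1 (chrX:154762614-154762863, plus strand): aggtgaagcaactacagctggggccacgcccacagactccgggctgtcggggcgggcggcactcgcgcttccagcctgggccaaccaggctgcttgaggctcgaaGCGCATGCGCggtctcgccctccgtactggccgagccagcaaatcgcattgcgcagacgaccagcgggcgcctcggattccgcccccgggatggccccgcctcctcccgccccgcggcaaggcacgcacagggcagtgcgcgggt
CACGTG was found in 1 of the 6 members, NOP10, at 170 and 11 bases before the start, and in 6.35% of all 35116 promoter windows. GCATGCGC was found in DKC1 only, on both strands in overlapping copies, and in 2.63% of all windows. CCGGAAGT was found in GAR1 and NOP10, and in 3.42% of all windows. GAR1 had more than 1 window, and the match lay in only 1 of them. Members were counted by gene and the shares by window, so they are not alike. These matches describe the letters and say nothing of binding.

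The rest of the pathway was read from 6 lists of 36 genes in all that work with the members. They were assembly and transport factors, U3 snoRNP proteins, telomerase and Cajal body proteins, and U4 snRNP partners of SNU13. The others were further rRNA modification enzymes and cofactors, and nucleolar hub proteins. In MOLM-13, 5 of the 34 tested were called lower and 0 higher, with a median of -0.33, beside 9.04% of all genes called lower. In NB4, 16 of 36 were called lower and 0 higher, with a median of -0.47, and 28 were lower at an adjusted p under 0.05, beside 10.7% of all genes called lower and 22.0% lower at that adjusted p. The 5 genes of MOLM-13 were also among the 16 of NB4, and the share of all genes called lower in both lines was not counted. Without DMSO replicate 2 the MOLM-13 count was 11, and without FP54 replicate 2 it was 9. Of all tested genes, 12.4% and 8.81% were called lower in these fits.

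Of the 11 assembly and transport factors, RUVBL1 and RUVBL2, the paired ATPases that help to assemble box C/D particles, were called lower in both lines. RUVBL1 went from 8.91 ± 3.22 to 3.22 ± 0.821 RPKM in MOLM-13 (SD, n = 3; a difference of -1.40, adjusted p = 0.0113 by limma) and from 39.3 ± 2.55 to 23.0 ± 0.630 RPKM in NB4 (-0.77, adjusted p = 3.63e-05). RUVBL2 fell by 0.77 in MOLM-13 and by 0.92 in NB4. NUFIP1, an adaptor that brings these ATPases to the box C/D proteins, fell by 0.70 in NB4. Of the 4 U3 snoRNP proteins, which serve the particle that starts small subunit processing, RRP9 had the largest difference in MOLM-13 (-1.04, adjusted p = 0.0714 by limma), which was not called, and without DMSO replicate 2 it was called (-1.52, adjusted p = 0.00573 by limma). In NB4 3 of the 4 were called, where IMP3 fell by 0.87, RRP9 by 0.86 and MPHOSPH10 by 0.51.

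TERT, the catalytic subunit of telomerase, the other particle that holds DKC1, averaged 0.521 ± 0.185 RPKM with DMSO and 0.0937 ± 0.0354 RPKM with FP54 in MOLM-13, under the filter, and fell from 6.51 ± 1.08 to 4.40 ± 0.0279 RPKM in NB4 (-0.54, adjusted p = 0.00408 by limma). Of the 3 U4 snRNP proteins that meet SNU13 in the spliceosome, PRPF3 and PRPF31 fell by 0.77 and 0.59 in NB4, and their list had a median of -0.21 in MOLM-13 with none called. The 12 modification enzymes and cofactors included NAT10, an RNA acetyltransferase, which fell by 0.72 in MOLM-13 and by 0.59 in NB4. FTSJ3 and RRP8 each fell by 0.60 in NB4. NOP2, an rRNA methyltransferase, averaged 1.39 ± 0.249 RPKM with DMSO and 0.810 ± 0.134 RPKM with FP54 there and was called, but it passed the filter on low values only through the DMSO group. TCOF1 (treacle), a nucleolar protein related to NOLC1, fell by 1.77 in MOLM-13 and by 0.78 in NB4, and GNL3 (nucleostemin) by 0.99 and 0.56. NPM1, an abundant nucleolar chaperone, averaged 338 ± 36.9 RPKM with DMSO and 345 ± 6.63 RPKM with FP54 in NB4, a difference of 0.04 that was not called, and 394 ± 63.0 against 327 ± 79.6 RPKM in MOLM-13 (-0.28, not called).

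**Figure D5:**
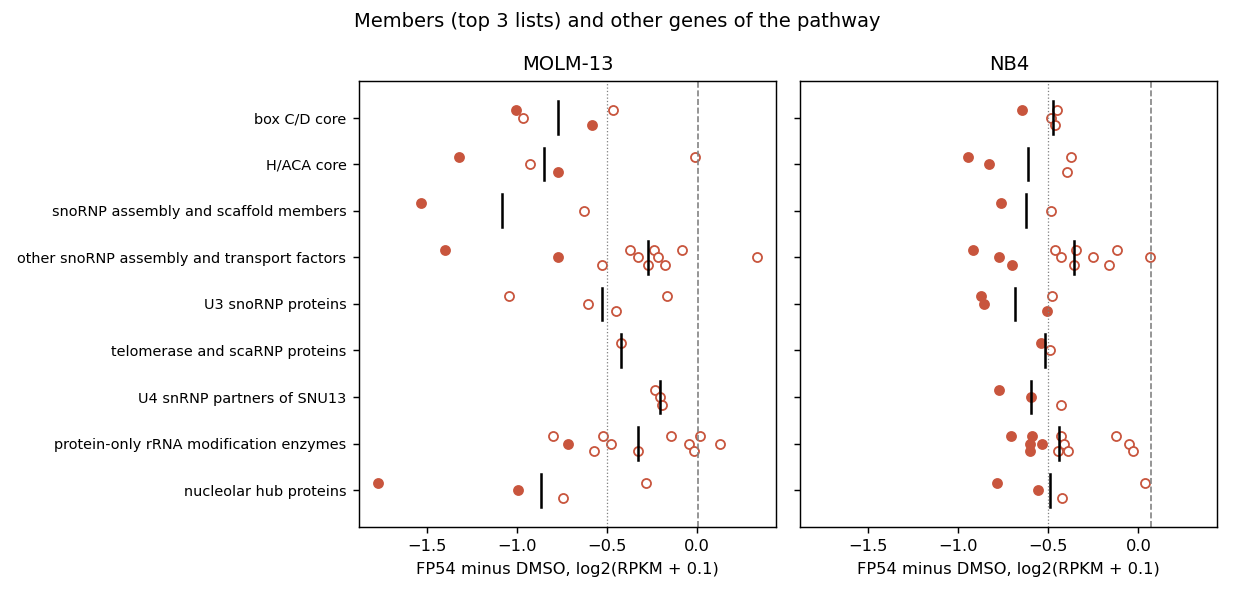
Difference of FP54 minus DMSO on the log2(RPKM + 0.1) scale for the members (top 3 lists) and the other genes of the pathway, in MOLM-13 (left) and NB4 (right), with 1 symbol a gene, filled where called lower, and a black bar at the list's median. The dashed line is the median of all tested genes and the dotted line marks -0.5. The NOLC1 and NAF1 list has the lowest median in MOLM-13 (-1.08), and the U3 snoRNP list the lowest in NB4 (-0.68).

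Host genes were counted in the same fits. These are protein-coding genes whose annotated span holds a snoRNA or small Cajal body RNA gene on the same strand. Whether that gene lies in an intron was checked for the members alone. Of 275 annotated host genes, 188 were tested in MOLM-13, of which 25 were called lower and 7 higher, with a median of -0.09, beside 9.04% and 9.30% of all genes. The 25 became 34 without DMSO replicate 2, and 16, 14 and 12 without DMSO replicate 1, DMSO replicate 3 and FP54 replicate 1. Of all genes, 12.4%, 5.63%, 4.76% and 5.19% were called lower in these fits, in that order. In NB4, 195 were tested, with 17 called lower, 21 higher and a median of 0.07, beside 10.7% and 18.6% of all genes. With median-ratio scaling the NB4 counts turned to 43 lower and 8 higher, beside 20.4% and 11.9% of all genes. Of the 3 members that are hosts, NOP58 and DKC1 were called lower in MOLM-13, and NOP56, NOP58 and DKC1 in NB4 had differences between -0.40 and -0.48 that missed the size limit.

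NHP2 overlaps the protein-coding gene RMND5B on the other strand, and NOP58, SNU13 and NAF1 overlap noncoding genes there. Whether counting used the strand is not given in the sources used here, so reads of these overlaps cannot be assigned. By GENCODE v44 on hg38, NHP2 lies at chr5:178149463-178153894 on the minus strand, FBL at chr19:39834458-39846379 on the minus strand, DKC1 at chrX:154762742-154777689 on the plus strand, and NOLC1 at chr10:102152176-102163871 on the plus strand.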

How the data were processed

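Polyadenylated RNA of MOLM-13 and NB4 cells was sequenced. By the submitters' processing notes, the authors trimmed reads with Cutadapt 4.8, aligned them with STAR 2.7.11b to hg38, counted them on GENCODE genes with featureCounts 2.0.3 and deposited RPKM per protein-coding gene and library (20411 genes in each table). Multiplying back by annotated exon length (GENCODE v44) and a library total fitted to the values gave whole reads within 0.05 for 98.5% to 99.1% of values under 100 reads, so depth is known. Fits used limma 3.58.1 in R 4.3.3 on log2(RPKM + 0.1), with a mean-variance trend, on genes with a mean of at least 1 RPKM in the line. A fold change on this scale understates the change of low genes. The call rule, p under 0.01 and a difference of at least 0.5, follows the study's cutoff, and p-values were adjusted by Benjamini-Hochberg over all tested genes. Whether the effect differed between lines was tested as an interaction over the 12 libraries. The fits were tested on simulated data. The members and lists were chosen with earlier results of these data known. Genes named are the 10 members, MYC, FTO, up to 3 called genes a list by size of difference, and the 5 genes most correlated with the mean member profile, with markers of the lines and of other cell types (a marker of another cell type is not reported here). RRP9 in MOLM-13, NAT10 in NB4 and NPM1 were named after their values were seen. Other pseudocounts, filters, scalings, variance settings, call rules and left-out libraries were tried. Coordinates are GENCODE v44 on hg38. snoRNA sequences were read from hg38, and promoters from RefSeq. Samples of m6A-seq and of polysome-seq were left out.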

Additional observations from a re-analysis of the deposited data

How the results depend on the processing

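In MOLM-13 the 5 members called lower became 1 without the filter on low values. They became 3 at p under 0.05 with a size limit of 1. When 1 library was left out, their number lay between 0 (without FP54 replicate 1) and 8 (without DMSO replicate 2). Of all tested genes, 2.60%, 3.35%, 5.19% and 12.4% were called lower in these fits, in that order. The 5 other pathway genes called lower became 3 without the filter, 3 at the size limit of 1 and 8 with the replicate block. They numbered between 4 and 11 when 1 library was left out. Of all tested genes, 9.06% were called lower with the block and between 4.76% and 12.4% when 1 library was left out. In NB4 the 4 members became 10 with median-ratio scaling and 0 at the size limit of 1, and between 4 and 6 when 1 library was left out. The 16 pathway genes of NB4 became 28 and 0 under the same settings. Of all tested genes in NB4, 20.4% were called lower with median-ratio scaling. At the size limit of 1 only 1.4% were, so the counts of 0 there say little about these genes in particular. The count of members whose effect differed between lines was 0 in the reported fit and 1 (NOP10) with median-ratio scaling. It lay between 0 and 2 when the same-numbered library of both lines was left out. The share of all genes that passed was 14.2% in the reported fit and was not counted in the others. The difference of NOP10 in MOLM-13 turned positive with quantile normalization (0.0161) and lay between -0.15 and 0.12 when 1 library was left out, above 0 without DMSO replicate 1 or FP54 replicate 2. Other pseudocounts, a filter at 5 RPKM, quantile normalization, eBayes without trend or with robust estimation, subtraction of the olfactory receptor level, and limma-voom kept each of these counts within 1.5 times. For single members and genes, 3 values reversed, 18 lost and 23 gained a call. The cause was not tested.

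The replicate numbers did not pair the libraries: deviations of same-numbered libraries correlated at -0.26, -0.13 and -0.06 in MOLM-13 and at -0.14, 0.07 and 0.12 in NB4. With the replicate number as a block, 7 members were called lower in MOLM-13 and 4 in NB4, beside 9.06% and 10.7% of all genes.

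At 30 to 211 reads per library in MOLM-13, NAF1 had the fewest reads of the members. With 3 libraries a group no exact test can go below p = 0.1.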
